A study of Mus musculus with 48 samples.

Results

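The 10 genes described here encode folding factors of the endoplasmic reticulum (ER) and regulators that are classically induced when unfolded protein builds up in that organelle. They were chosen by name as a family of the unfolded protein response, with earlier results of these data known. All 10 were found among the 51789 genes of the deposited count table. Hspa5 encodes BiP, the Hsp70 of the ER lumen, and Hyou1 encodes a larger relative of Hsp70 that acts as its nucleotide exchange factor. Hsp90b1 encodes Grp94, the Hsp90 of the ER. Calr encodes calreticulin, a calcium-binding lectin that holds newly made glycoproteins. Pdia4 and Pdia6 encode disulfide isomerases. Sdf2l1 and Creld2 encode ER-resident proteins induced by ER stress, the former found in complexes of BiP with its J-domain partners. Herpud1 encodes a membrane protein of the machinery that sends misfolded proteins to degradation (ERAD). Xbp1 encodes a transcription factor that drives such genes.

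The unfolded protein response has a trio of sensors in the ER membrane. IRE1 alpha (Ern1) splices the Xbp1 mRNA, so that a potent transcription factor is made. ATF6 moves to the Golgi, where proteases release an active factor. PERK (Eif2ak3) slows translation and raises ATF4, which is shared with other branches of the integrated stress response. The products of the first pair of sensors bind ER stress elements in the promoters of chaperone genes. Macrophages are secretory and phagocytic cells, and the response is known in them from states of high secretion and from lipid loading. Cytosolic heat shock proteins, by contrast, are induced through HSF1 when proteins unfold outside the ER, and they served as the comparison list. Counts at the 3′ end of a transcript do not separate spliced from unspliced Xbp1, so its level is given and its splicing is not.

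AP-3-84, a compound that has only this code in the labels, was given to mouse macrophages of 8 populations at 10 µM for 4 h, with DMSO as the vehicle control, in 16 groups of 3 libraries. The strain field gives C57BL/6 for all samples. Ascites macrophages were F4/80+ cells taken with magnetic beads from peritoneal washes of mice that had carried the ovarian tumour line ID8 for 45 days and whose genotype field reads B6(Cg)-Tyrc-2J/J. Thio macrophages were F4/80+ cells isolated in the same way from wild-type C57BL/6 mice 4 days after 1 ml of 3% thioglycollate, an irritant, had been given into the peritoneum. The remaining 6 populations were cultured bone marrow-derived macrophages, grown from marrow stem cells for 6 days with 10 ng/mL M-CSF and left so (M0), or exposed for 24 h more either to LPS (100 ng/mL) together with IFN-γ (50 ng/mL), called M1, or to IL-13 with IL-4 (10 ng/mL of either), called M2. These came from wild-type (WT) or p53 knockout (KO) mice by the titles and the series design, while the genotype field calls all of them wild-type. The labels state no ages. The F4/80 beads enrich macrophages from a mixed wash but do not make them pure, and the marrow-derived cells are a culture model. Nothing in the labels says that replicates are separate animals or cultures, so the p-values below measure the spread between these libraries, which may be technical.

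Totals ran from 15532373 to 19417581 counts per library in the peritoneal populations and from 3081707 to 4645148 in the marrow-derived ones, and the 2 sets were fitted apart, so levels are not compared between them. Levels are counts scaled to a common library total (CPM) after TMM scaling. Cdkn1a, a p53 target, had a mean of 38.8 CPM in KO_M0 against 927 CPM in WT_M0 vehicle libraries. The means were 232 against 672 CPM in M1 and 96.9 against 898 CPM in M2, which follows the titles. Mdm2, another p53 target, did not follow them in M1, at 200 CPM in KO_M1 against 181 CPM in WT_M1. Ccng1 (34.6 against 110 CPM) and Phlda3 (0 against 10.3 CPM) were lower in KO_M1. Arg1, an M2 marker, had a mean of 1461 CPM in WT_M2 and 2086 CPM in KO_M2 vehicle libraries, against 3.90 and 1.46 CPM in M0. Nos2, an M1 marker, reached only 3.38 CPM in WT_M1 and 12.2 CPM in KO_M1, although all 12 M1 markers had counts there. Macrophage markers, 8 of 8 with counts, summed to 25240 to 35311 CPM in peritoneal libraries and 6027 to 49105 CPM in marrow-derived ones. A few libraries stood apart. Ascites AP-3-84 library 1 had 20388 genes with counts, against 22737 and 22676 in libraries 2 and 3. KO_M0 libraries 1 and 2 with AP-3-84 had M1 markers at 7250.0 and 7143 CPM, the third at 1690.0 CPM, and the KO_M0 vehicle libraries at 68.2 to 163 CPM. Neutrophil markers reached 3954 CPM in WT_M2 vehicle library 1, 3655 CPM in KO_M1 AP-3-84 library 1, 3285 CPM in KO_M2 vehicle library 3 and 2502 CPM in KO_M1 vehicle library 3, against a median of 537 CPM. S100a8 and S100a9 made up most of these neutrophil sums, at 2310 and 1402 CPM in WT_M2 vehicle library 1. In that library Ngp (220 CPM) and Camp (17.8 CPM) were also higher than in libraries 2 (34.1 and 3.92 CPM) and 3 (38.3 and 2.85 CPM). Mpo, Ly6g, Elane and Retnlg were at most at 1.95 CPM in it. In bulk RNA, fewer cells of a type and less RNA per cell cannot be told apart.

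The ER stress element (ERSE) is the sequence through which ATF6 and XBP1 act on chaperone promoters, and its matches are shown because they lie in promoters of the genes described here. Promoters of 9 of the 10 genes, from 250 bases before to 50 bases after the start, were found in the RefSeq table (GRCm38.p6). Hyou1 was not among them. Both strands were searched. ERSE was present in 5 of these 9 promoters, in 5 of 26 promoters of other ER genes, in 0 of 16 promoters of cytosolic heat shock genes and in 39 of 32851 promoters in all (0.119%). ERSE-II, a shorter form of it, was present in Herpud1 alone of the 9, in 1 of the 26, in 0 of the 16 and in 12 promoters in all (0.0365%). Another element, UPRE (TGACGTGG), was present in 0 of the 9, in 3 of the 26, in 0 of the 16 and in 222 promoters in all (0.676%). No letters are shared between the ERSE and ERSE-II matches of 1 promoter, since no promoter of the 9 held both. The matched stretches are shown with 20 bases on each side, 5′ to 3′ on the strand of the gene, with the fixed letters of the motif in capitals. The lower-case letters between the capitals were free in the search, and the patterns were set by hand as textbook forms:
Hspa5, ERSE, + strand, chr2:34772005-34772063: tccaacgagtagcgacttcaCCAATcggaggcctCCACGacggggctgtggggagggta
Hsp90b1, ERSE, − strand, chr10:86705618-86705676: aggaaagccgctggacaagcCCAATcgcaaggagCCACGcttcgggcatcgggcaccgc
Hsp90b1, ERSE in reverse complement, − strand, chr10:86705513-86705571: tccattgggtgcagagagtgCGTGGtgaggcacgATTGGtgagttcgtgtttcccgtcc
Pdia6, ERSE, + strand, chr12:17266471-17266529: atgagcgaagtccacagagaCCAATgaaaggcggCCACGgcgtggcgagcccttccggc
Calr, ERSE in reverse complement, − strand, chr8:84847055-84847113: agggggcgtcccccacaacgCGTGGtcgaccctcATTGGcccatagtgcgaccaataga
Creld2, ERSE in reverse complement, + strand, chr15:88819500-88819558: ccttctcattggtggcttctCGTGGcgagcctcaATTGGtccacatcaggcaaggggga
Herpud1, ERSE-II, + strand, chr8:94386357-94386407: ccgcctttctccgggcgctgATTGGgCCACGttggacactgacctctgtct
Hsp90b1 carried a pair of matches in opposite orientation, and the other promoters carried 1 each. The Hspa5 match lay 65 to 47 bases before the start, that of Pdia6 98 to 80 bases and that of Herpud1 52 to 42 bases before it. The Calr match lay 162 to 144 bases and the Creld2 match 126 to 108 bases before the start, and those of Hsp90b1 212 to 194 and 107 to 89 bases before it. These distances are from the start of the RefSeq promoter table. For Hspa5 that start (34772090) lies 120 bases inside the gene as GENCODE M21 bounds it, so its match is within that interval. The RefSeq start lay 65 bases inside the GENCODE interval for Hsp90b1, 44 for Pdia6 and 3 for Calr, 9 bases outside it for Herpud1 and at its edge for Creld2, and the matches of these genes are before both starts. A match is a stretch of letters and does not show that a factor binds there. None was found for Pdia4, Sdf2l1 or Xbp1 in these windows.

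In the annotation used for coordinates (GENCODE M21, GRCm38), all 10 are protein-coding genes. Hspa5 (ENSMUSG00000026864) lies at chr2:34771970-34777547 on the + strand, Hyou1 (ENSMUSG00000032115) at chr9:44379490-44392369 on the + strand and Hsp90b1 (ENSMUSG00000020048) at chr10:86690209-86705509 on the − strand. Pdia4 (ENSMUSG00000025823) lies at chr6:47796141-47813430 on the − strand and Pdia6 (ENSMUSG00000020571) at chr12:17266545-17284770 on the + strand. Calr (ENSMUSG00000003814) and Herpud1 (ENSMUSG00000031770) are both on chromosome 8, at chr8:84841850-84846934 on the − strand and chr8:94386438-94395377 on the + strand. Sdf2l1 (ENSMUSG00000022769) lies at chr16:17130138-17132383 on the − strand, Creld2 (ENSMUSG00000023272) at chr15:88819646-88826683 on the + strand and Xbp1 (ENSMUSG00000020484) at chr11:5520659-5525893 on the + strand. Every gene passed the filter on low counts in both fits. Counts per library ranged from 39, for Creld2, to 23049, for Hspa5, so the low-count genes Creld2, Xbp1, Sdf2l1 and Herpud1 are measured with more error than Hspa5 and Calr.

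The first question of the design is whether AP-3-84 changed these genes within 4 h. Few of the ER gene differences passed the test. Over 10 genes and 8 populations, 6 of 80 passed as higher with the compound and 0 as lower. The median log2 fold change was 0.07, with a range from −0.62 to 1.30. Of the 6, Hspa5 and Hyou1 passed in thio macrophages, beside 2.51% of all genes called higher. The others, Hspa5, Pdia6, Herpud1 and Hyou1, passed in KO_M0, beside 12.1% of all genes. In the remaining 6 populations 0% to 1.79% of all genes were called in either direction. Genes of the cytosolic heat shock list passed the test as higher in 41 of 154 tests and as lower in 0. The test throughout is the quasi-likelihood test of edgeR with Benjamini-Hochberg adjustment over all genes of a fit, two-sided, called at an adjusted p under 0.05, and log2 fold changes are given with their standard errors (SE).

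**Figure D1:**
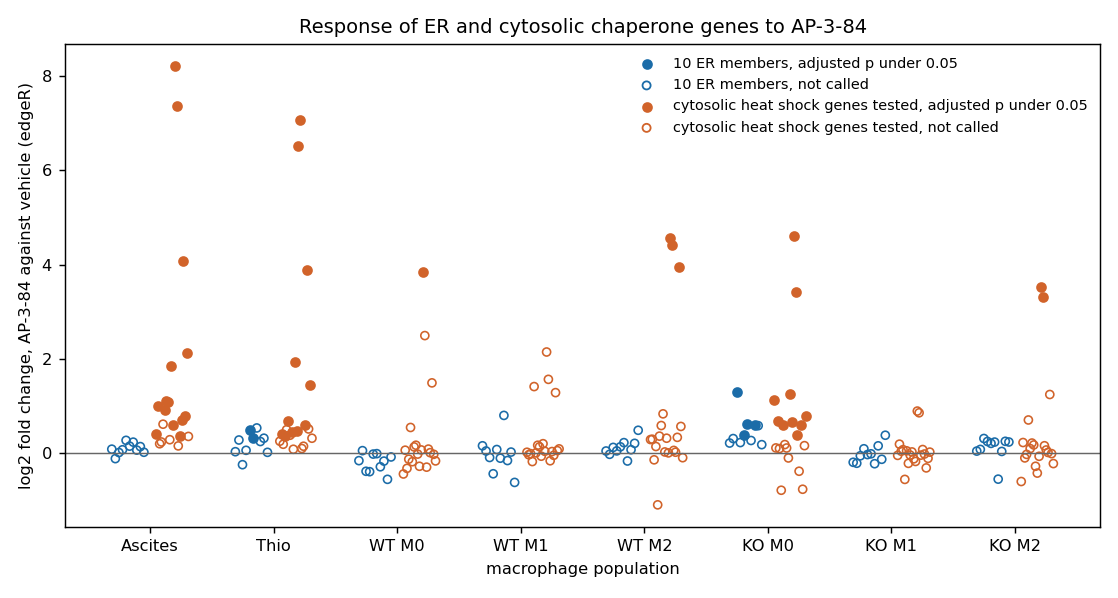
Log2 fold change of AP-3-84 against vehicle for the 10 ER genes and for genes of the cytosolic heat shock list in each of the 8 populations, with filled points for an adjusted p under 0.05 (edgeR). The ER genes stay between −0.62 and 1.30 in all populations, while Hspa1a reaches 8.22 in ascites macrophages.

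In thio macrophages the mRNA of BiP was higher in every treated library than in any vehicle library. Hspa5 stood at 865, 888 and 925 CPM with vehicle and at 1116, 1343 and 1317 CPM with AP-3-84, so the groups did not overlap. The log2 fold change was 0.50 (SE 0.0763, 95% confidence interval 0.33 to 0.66, adjusted p = 0.000798), and the call held in all 13 alternatives run. Hyou1, the exchange factor of BiP, stood at 45.1, 48.6 and 50.8 CPM with vehicle and at 56.6, 61.3 and 62.8 CPM with AP-3-84, again without overlap. Its log2 fold change was 0.32 (SE 0.0817, adjusted p = 0.0327), and this call was lost in 8 of 13 alternatives, among them the Wald test of DESeq2 (adjusted p = 0.054). Leaving out a single library ended it for vehicle library 1 (adjusted p = 0.169), 2 (0.103) or 3 (0.0553) and for AP-3-84 library 2 (0.108) or 3 (0.123). These 2 of 10 genes compare with 2.51% of all genes tested that were called higher in this population.

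The isomerases and Sdf2l1 lay on the same side in thio macrophages without passing the test. Pdia4 went from 69.1, 80.0 and 73.5 to 87.5, 123 and 112 CPM, with a log2 fold change of 0.54 (SE 0.157, adjusted p = 0.0966). Pdia6 went from 132, 145 and 144 to 165, 175 and 160.2 CPM, with a log2 fold change of 0.25 (SE 0.069, adjusted p = 0.0515). The treated and vehicle libraries of both genes were separate. Sdf2l1 had 21.0 to 23.2 CPM with vehicle and 26.8 to 28.8 CPM with AP-3-84, and a log2 fold change of 0.32 (adjusted p = 0.0899). Herpud1, the ERAD gene, was the only member with a negative value there, from 18.3, 16 and 18.2 to 13.9, 15.6 and 14.8 CPM (log2 fold change −0.24, adjusted p = 0.38). At an unadjusted p under 0.05, 5 of the 10 genes counted as higher.

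In ascites macrophages 0 of 10 genes passed the test in edgeR and 0 in DESeq2, with 1 at an unadjusted p under 0.05, beside 1.79% of all genes called. The gene in question was Hspa5, at 1164, 1090.3 and 1028 CPM with vehicle and 1451, 1269.9 and 1247 CPM with AP-3-84. The libraries were separate, and the log2 fold change was 0.27 (SE 0.0761, 95% confidence interval 0.11 to 0.43, adjusted p = 0.0946). The other 9 genes had log2 fold changes from −0.11 for Creld2 to 0.24 for Pdia4, with upper confidence bounds of at most 0.58. AP-3-84 library 1, with the fewest genes detected, was highest of its group for Pdia4 (198 against 134 and 139 CPM) and Calr (872 against 674 and 696 CPM). It was also highest for Hspa5, Pdia6, Sdf2l1 and Hyou1. It was lowest for Herpud1, Xbp1 and Creld2. Leaving out any 1 library of the 2 groups also gave 0 of 10. Epithelial or ID8 tumour markers, 8 of 8 with counts, summed to 185 to 219 CPM in the vehicle and 216 to 235 CPM in the AP-3-84 libraries of this population. Their part in the result was not tested. The difference between the ascites and the thio response was tested for each gene, and 0 of 10 passed in edgeR, 0 in DESeq2 and 0 at an unadjusted p under 0.05, beside 0.118% of all genes. For Hspa5 the ascites response was 0.22 lower on the log2 scale, with a confidence interval from −0.45 to 0.01 for the difference.

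**Figure D2:**
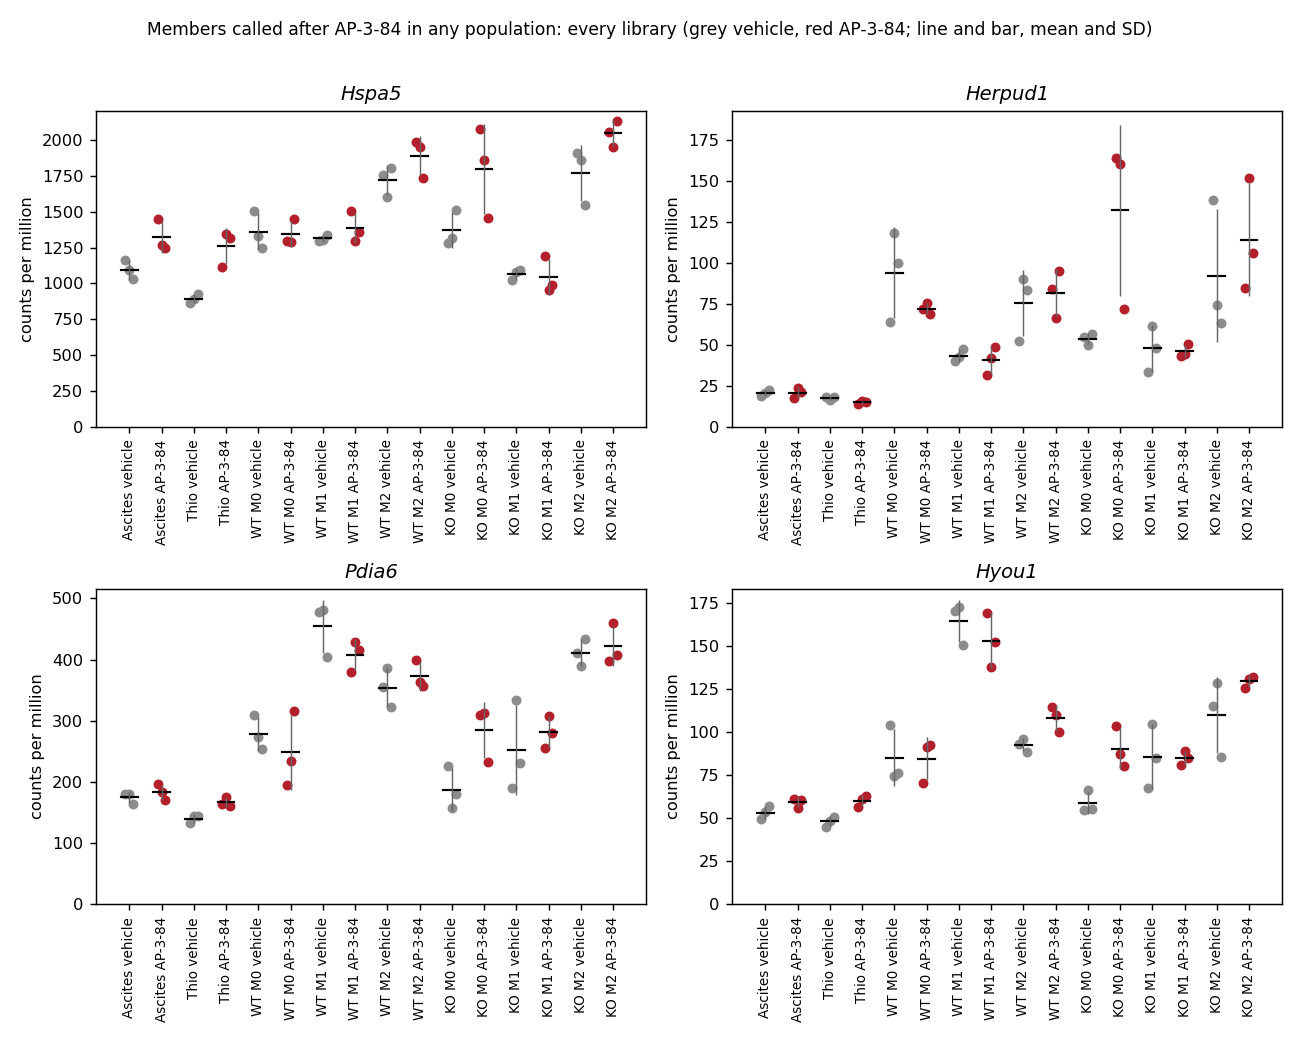
CPM of Hspa5, Herpud1, Pdia6 and Hyou1 in every library of the 16 groups, vehicle in grey and AP-3-84 in red, with the mean and SD of 3 libraries. Hspa5 in thio macrophages lies at 865 to 925 CPM with vehicle and 1116 to 1343 CPM with AP-3-84, and Herpud1 in KO_M0 has 2 treated libraries at 164 and 161 CPM and the third at 71.7 CPM.

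KO_M0 was the population with the largest response of any single member. Herpud1 stood at 54.5, 49.9 and 56.5 CPM with vehicle and at 164, 161 and 71.7 CPM with AP-3-84, a log2 fold change of 1.30 (SE 0.295, adjusted p = 0.00222). Hyou1 went from 54.8, 66.2 and 55.2 to 104, 87.1 and 80.5 CPM (log2 fold change 0.62, SE 0.162, adjusted p = 0.00605). Pdia6 went from 226, 157 and 179.9 to 309, 313 and 233 CPM (0.60, SE 0.171, adjusted p = 0.0114). For Herpud1, Hyou1 and Pdia6 all 3 treated libraries were above all 3 vehicle libraries. Hspa5 overlapped between the groups, at 1283, 1315 and 1515 CPM with vehicle and 2079, 1859.7 and 1459 CPM with AP-3-84 (0.39, SE 0.123, adjusted p = 0.0221). Sdf2l1, with 34.1, 27.4 and 40.6 CPM against 64.7, 52.0 and 36.5 CPM, did not pass (0.58, SE 0.268, adjusted p = 0.119). The 4 of 10 genes called higher compare with 12.1% of all genes called higher in KO_M0, and DESeq2 also called 4.

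In KO_M0 all of Herpud1, Hyou1, Pdia6, Hspa5, Sdf2l1, Calr and Creld2 were highest in treated libraries 1 and 2. These are the libraries with M1 markers at 7250.0 and 7143 CPM, with 12 of 12 markers having counts. In the vehicle libraries 10 of the 12 had counts, and Nos2 and Il6 were at 0. Of the 12 markers, 6 passed the test as higher with AP-3-84 in this population. With both libraries left out, which leaves 1 treated library that is assumed to vary like the other groups, none of the 4 genes passed. Herpud1 then had a log2 fold change of 0.43 (adjusted p = 0.828), Hyou1 of 0.47 (0.558), Pdia6 of 0.32 (0.776) and Hspa5 of 0.10 (0.918). Leaving out single libraries also ended calls. Hspa5 no longer passed without vehicle library 1 (adjusted p = 0.084) or 2 (0.0772) or AP-3-84 library 1 (0.173) or 2 (0.0955), Pdia6 without vehicle library 2 (0.0735) or AP-3-84 library 1 (0.0591) or 2 (0.0736), and Hyou1 without AP-3-84 library 1 (0.0549). Herpud1 was the 1 gene that passed in a fit of these 2 groups alone.

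In the other 5 marrow-derived populations no ER gene passed, in edgeR or in DESeq2. In WT_M0 0 of 10 passed, beside 0.144% of all genes, and 2 had an unadjusted p under 0.05, both on the lower side. These were Hsp90b1, with 879, 872 and 717 CPM against 594, 576 and 711 CPM (log2 fold change −0.39, adjusted p = 0.493), and Sdf2l1, with 70.4, 65.7 and 39.9 CPM against 33.8, 39.3 and 47.0 CPM (−0.55, adjusted p = 0.511). In WT_M1 0 of 10 passed, beside 0.017% of all genes, and 2 had an unadjusted p under 0.05 in opposite directions. Pdia4 went from 51.9, 64.1 and 91.1 to 136, 147 and 78.0 CPM (0.80, SE 0.368, adjusted p = 0.633), and Hsp90b1 from 605, 548 and 489 to 378, 488 and 348 CPM (−0.44, adjusted p = 0.548). The Pdia4 libraries overlapped, whereas the highest treated library for Hsp90b1 lay just under the lowest vehicle library. In WT_M2, KO_M1 and KO_M2, 0 of 10 passed and 0 had an unadjusted p under 0.05, beside 1.21%, 0% and 0.0509% of all genes called. The intervals in these marrow-derived groups are wide: over all 8 populations the upper bound for Pdia4 was 1.56 and that for Xbp1 1.33, whereas that for Calr was 0.48.

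Set against the ER genes, the cytosolic heat shock genes answered in more populations. Called higher were 14 of 20 in ascites, 11 of 20 in thio, 10 of 19 in KO_M0, 3 of 19 in WT_M2, 2 of 19 in KO_M2, 1 of 19 in WT_M0 and 0 of 19 in WT_M1 and in KO_M1. Hspa1a, an inducible cytosolic Hsp70, had a mean of 2.47 CPM with vehicle and 738 CPM with AP-3-84 in ascites, and of 4.04 and 372 CPM in thio macrophages (log2 fold changes 8.22 and 6.52). Its reads may be shared with the near-identical Hspa1b, which had 7.37 and 7.07. In WT_M2, where 0 of the ER genes passed, Hspa1a had a log2 fold change of 4.56, from a mean of 5.83 to 139 CPM. Hsp90aa1, the inducible cytosolic Hsp90, had 1.86 in ascites and 1.94 in thio macrophages, while its ER relative Hsp90b1 had 0.07 and 0.06. Hspa8, the constitutive cytosolic Hsp70, had 0.70 and 0.60, Hsph1 2.13 and 1.45, and Dnajb1 1.12 in ascites and 0.38 in thio macrophages, the last of which did not pass. The median log2 fold change of the heat shock genes was 0.74 in ascites and 0.47 in thio macrophages, that of the ER genes 0.08 and 0.26, and that of all genes tested −0.005 and 0.025. Of all genes, 12.1% were called higher in KO_M0. The part of its 2 treated libraries high in M1 markers was not tested for the heat shock genes. The difference between the lists was not tested.

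Other branches of the unfolded protein response were read from lists beside the 10 genes. Among 12 genes of the PERK and integrated stress response, 9 were called higher in thio macrophages, with Atf4 at a log2 fold change of 0.68, the proapoptotic factor Ddit3 at 0.62 and the ATF4 target Trib3 at 2.14. In ascites macrophages 4 of 12 were called higher (Ppp1r15a 1.49, Atf3 0.81, Atf4 0.44 and Trib3 1.09). In KO_M0, 8 were higher, beside 12.1% of all genes, among them Atf4 (1.04), Trib3 (3.00), Ddit3 (1.07), Chac1 (3.39) and Asns (2.49). In the same population 1, Cebpg, was lower. Treated KO_M0 libraries 1 and 2 were high in M1 markers, and the part of these libraries in the list counts was not tested. The other 5 populations had 0 of 12. Among 28 further genes of ER folding, translocation and ERAD, 1 was higher in thio macrophages (Selenos 0.37), and in KO_M0 4 were higher (Derl1 0.61, Selenos 0.49, Manf 1.06 and Ssr1 0.42) and 2 lower (Cnpy2 −0.62 and Os9 −0.48). The other 6 populations had 0 of 28. Dnajb9, an IRE1-dependent cochaperone of BiP, did not pass in any population, and its largest value was 0.84 in WT_M0 (adjusted p = 0.244). Of 6 sensors and their proteases, including Ern1, Atf6 and Eif2ak3, 0 passed in each of the 8 populations.

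Whether the response differed between populations was tested with interaction terms. The KO_M0 response exceeded that of WT_M0 for 3 of 10 genes, beside 10% of all genes on that side. Herpud1 had a difference of 1.68 (SE 0.413, adjusted p = 0.00595), since it had gone from 63.9, 119 and 99.9 to 72.0, 75.8 and 68.7 CPM in WT_M0. Sdf2l1 had 1.14 (SE 0.376, adjusted p = 0.0342) and Pdia6 0.77 (SE 0.241, adjusted p = 0.025), and Hyou1, at 0.63, did not pass (adjusted p = 0.0513). Sdf2l1 passed in this difference although it had passed in neither population alone. The count fell from 3 to 1 without any of WT_M0 vehicle library 1, WT_M0 AP-3-84 library 1 or 2 and KO_M0 AP-3-84 library 1 or 2, and to 0 without both KO_M0 libraries high in M1 markers. Leaving out KO_M0 vehicle library 2 also ended the calls of Pdia6 (adjusted p = 0.0732) and Sdf2l1 (0.0844), library 3 that of Pdia6 (0.0518), library 1 that of Sdf2l1 (0.0539) and WT_M0 vehicle library 2 that of Sdf2l1 (0.071). In addition Herpud1 responded less in KO_M1 than in KO_M0 (−1.35, SE 0.417, adjusted p = 0.0489), 1 of 10 genes beside 4.78% of all genes on that side, a call lost in 16 of 21 alternatives. The remaining interactions gave 0 of 10 in edgeR and in DESeq2. At an unadjusted p under 0.05 they gave 1 for KO_M1 minus WT_M1, 0 for KO_M2 minus WT_M2, 1 for WT_M1 minus WT_M0, 1 for WT_M2 minus WT_M0 and 2 for KO_M2 minus KO_M0, beside 0.00849%, 1.77%, 0.0255%, 0.136% and 15.8% of all genes.

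Between populations without the compound, 1 to 9 of the 10 genes were called, against 0 to 4 for the response within a population. The share of all genes called, given beside the counts, differed between these comparisons. The widest difference was that of KO_M2 against KO_M0 vehicle libraries, p53 knockout cells with and without IL-4 and IL-13. There 9 of 10 genes were higher, 0 were lower and Xbp1 did not pass. The labels name 24 h of exposure for M2 and no further time for M0. Cytokines and time in culture therefore cannot be told apart. Of all genes, 20.1% were called higher and 18% lower. The median log2 fold change was 0.97 for the 10 genes and 0.018 for all genes tested. DESeq2 also called 9, leaving out 1 library gave 7 to 9, and the count was 9 without the 4 libraries high in neutrophil markers and 8 when scaled by total counts.

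The lumenal chaperones differed in size. Hsp90b1 stood at 505, 385 and 404 CPM in KO_M0 and at 897, 894 and 849.7 CPM in KO_M2 (log2 fold change 1.03, SE 0.18, adjusted p = 3.78e-05). Calr stood at 852, 849 and 950.4 CPM against 1363, 1611 and 1108 CPM (0.62, SE 0.128, adjusted p = 0.000278). Hspa5 had a smaller difference, 1283, 1315 and 1515 CPM against 1909, 1859 and 1547 CPM (0.37, SE 0.123, adjusted p = 0.018). In all 3 genes every KO_M2 library was above every KO_M0 library, although the Hspa5 call did not survive leaving out KO_M0 library 1 (adjusted p = 0.0846) or 2 (0.0757) or KO_M2 library 1 (0.0673) or 2 (0.0628). Hyou1 stood at 54.8, 66.2 and 55.2 CPM against 115, 129 and 85.6 CPM (0.91, SE 0.162, adjusted p = 5.01e-05), also without overlap.

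Among the isomerases, Pdia6 stood at 226, 157 and 179.9 CPM in KO_M0 and 411, 389 and 433 CPM in KO_M2 (1.13, SE 0.172, adjusted p = 5.43e-06), and Pdia4 at 103, 89.6 and 157 CPM and 239, 322 and 329.9 CPM (1.35, SE 0.364, adjusted p = 0.00476). Both were separate between the groups. Sdf2l1 went from 34.1, 27.4 and 40.6 to 89.7, 73.2 and 72.9 CPM (1.2, SE 0.267, adjusted p = 0.000658), and Creld2 from 15.2, 15.4 and 14.9 to 32.6, 34.7 and 29.0 CPM (1.08, SE 0.269, adjusted p = 0.0019). Neither gene overlapped between the groups. Herpud1, at 54.5, 49.9 and 56.5 CPM against 139, 74.3 and 63.5 CPM (0.78, SE 0.294, adjusted p = 0.0365), rested on KO_M2 library 1, without which the adjusted p was 0.343, and it was also lost without KO_M0 library 1 (0.0798), 2 (0.108) or 3 (0.0779). Xbp1 overlapped, at 57.1, 35.4 and 26.2 CPM against 70.6, 43.7 and 71.7 CPM, and did not pass (0.64).

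**Figure D3:**
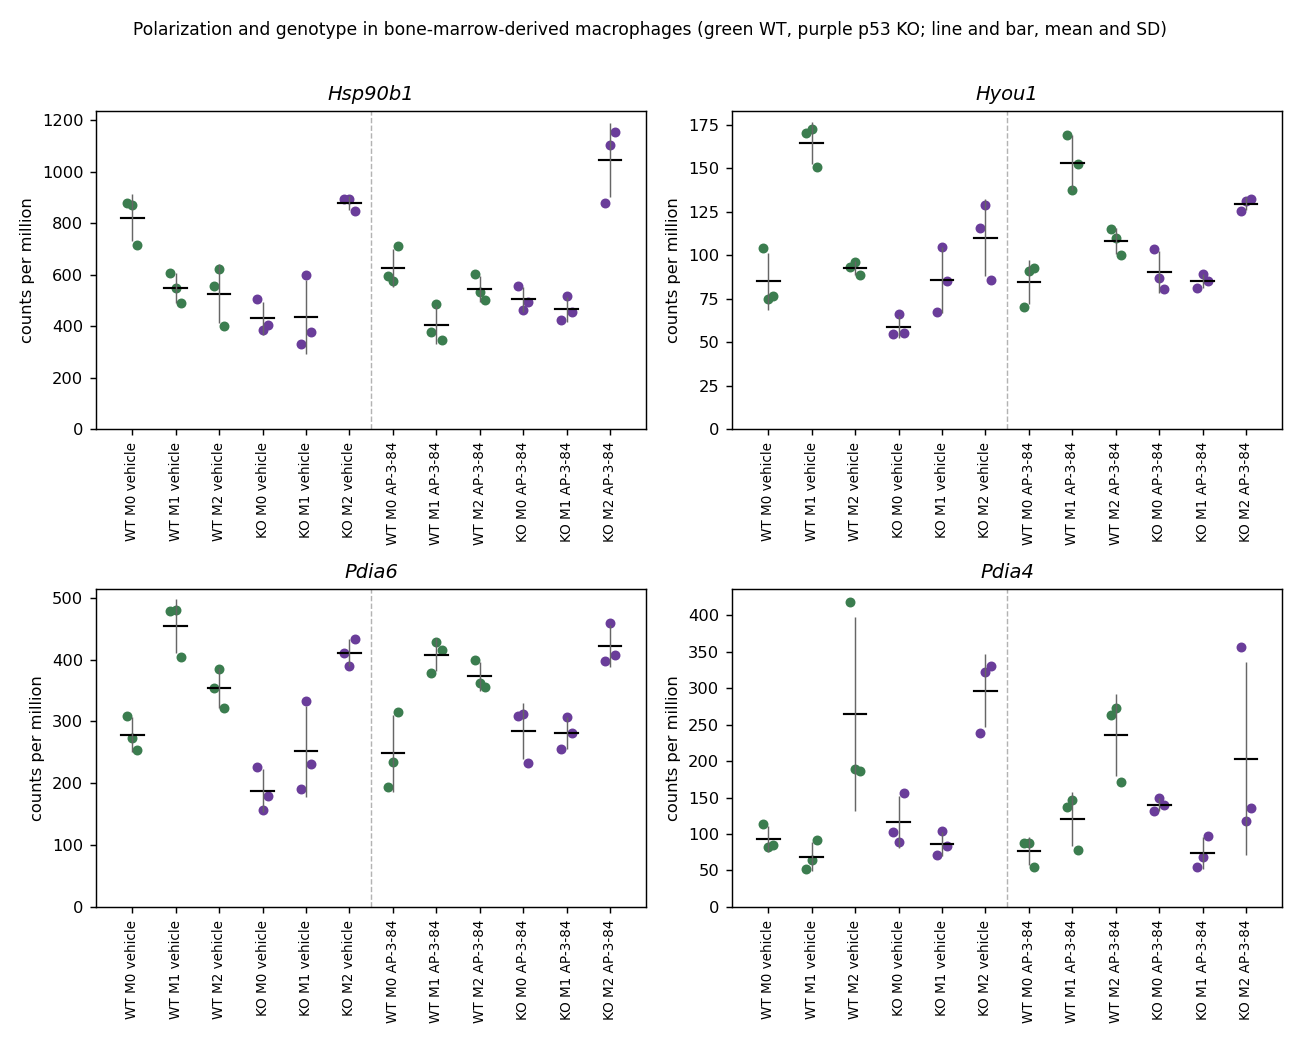
CPM of Hsp90b1, Hyou1, Pdia6 and Pdia4 in every library of the 12 marrow-derived groups, WT in green and KO in purple, vehicle on the left and AP-3-84 on the right of each panel, with the mean and SD of 3 libraries. Hsp90b1 falls from M0 to M2 in WT vehicle libraries, 822 to 527 CPM on average, and rises in KO ones, 431 to 880.3 CPM.

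Some further ER genes were also higher in this comparison. Of the 28 other ER genes, 12 were higher, beside 20.1% of all genes, and 1, Os9, lower, beside 18%. Dnajc10 had 0.99, Edem1 0.87, Ssr1 0.68, Dnajb11 0.72 and Manf 1.43. Of the sensors, 0 of 6 were higher and 2 lower, Atf6 at −0.74 and Ern1 at −0.68. Of the integrated stress list 9 of 12 were higher, with Atf4 at 1.2 and Trib3 at 3.58. Macrophage markers summed to 6027 to 18712 CPM in the KO_M2 vehicle libraries and 33357 to 40364 CPM in the KO_M0 ones, 8 of 8 with counts in both. Lyz2 made up most of the sum, with means of 7552 CPM in KO_M2 and 27201 CPM in KO_M0. Csf1r (1862 and 6604 CPM), C1qa (203 and 1341 CPM), Mertk (62.4 and 301 CPM) and Fcgr1 (45.5 and 124 CPM) were also lower on average in KO_M2. Adgre1 (443 and 485 CPM), Cd68 (1021 and 1165 CPM) and Itgam (228 and 225 CPM) differed little. Plasma cell markers, a sign of cells rich in ER, summed to 45.5 to 114 CPM and 91.4 to 105 CPM, with Jchain, Mzb1, Tnfrsf17 and Igkc at 0 in both groups. The part of the lower macrophage marker sum in the result was not tested. In the AP-3-84 libraries, which are other libraries of the same populations, 6 of 10 genes were higher in KO_M2 than in KO_M0, beside 11.6% of all genes, led by Hsp90b1 (1.05, adjusted p = 3.5e-05). The others, Pdia6, Sdf2l1, Calr, Creld2 and Hyou1, had 0.45 to 0.87, and each was lost without at least 1 single library. The count was 3 without KO_M0 AP-3-84 library 3 or KO_M2 AP-3-84 library 2, and 4 without both KO_M0 libraries high in M1 markers.

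In WT cells the vehicle libraries differed in both directions. WT_M2 against WT_M0 vehicle libraries had 2 of 10 genes higher, beside 12.7% of all genes, and 1 lower, beside 10.7%. Pdia4 was higher, from 114, 82.7 and 84.3 to 418, 189 and 186 CPM (1.5, SE 0.367, adjusted p = 0.00373), a call lost (adjusted p = 0.0501) without WT_M2 library 1, the library with neutrophil markers at 3954 CPM. Hspa5 was higher, from 1505, 1331 and 1247 to 1753, 1602 and 1808 CPM (0.34, SE 0.123, adjusted p = 0.043), a call lost in 8 alternatives, among them total-count scaling (0.434) and leaving out WT_M0 library 2 (0.133) or 3 (0.17) or WT_M2 library 1 (0.104) or 3 (0.138). Hsp90b1 was lower, from 879, 872 and 717 to 557, 623 and 399 CPM (−0.64, SE 0.179, adjusted p = 0.00841), and was lost without WT_M2 library 3 (0.087). All 3 genes were separate between the groups. The counts were 5 without WT_M0 library 1 and 1 without WT_M2 library 1 or 3, and 1 higher and 1 lower when scaled by total counts. With AP-3-84, 5 of 10 genes were higher in WT_M2 than in WT_M0, beside 9.3% of all genes, and 0 lower. These were Pdia4 (1.62, SE 0.37, adjusted p = 0.00263), Sdf2l1 (1.17, SE 0.264, adjusted p = 0.00182), Hspa5 (0.49, adjusted p = 0.00464), Calr (0.49, adjusted p = 0.00672) and Pdia6 (0.59, adjusted p = 0.0141), each with separate libraries. Hsp90b1 had −0.20 there and did not pass (adjusted p = 0.488). Pdia6 was lost without WT_M0 AP-3-84 library 1 (0.127) or 2 (0.0635) or WT_M2 AP-3-84 library 1 (0.061), and the count was 3 without the filter on low counts.

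The family was split between WT_M1 and WT_M0 vehicle libraries. Against WT_M0, 3 of 10 genes were higher in WT_M1, beside 8.01% of all genes, and 2 lower, beside 7.49%. Hyou1 rose from 104, 74.8 and 76.4 to 170.5, 173 and 151 CPM (0.95, SE 0.16, adjusted p = 9.94e-05), Creld2 from 25.3, 13.6 and 9.97 to 36.1, 33.9 and 29.7 CPM (1.02, SE 0.265, adjusted p = 0.00794) and Pdia6 from 309, 273 and 254 to 478, 481 and 405 CPM (0.71, SE 0.17, adjusted p = 0.00438). Herpud1 fell from 63.9, 119 and 99.9 to 40.2, 42.4 and 47.6 CPM (−1.11, SE 0.297, adjusted p = 0.00993) and Hsp90b1 from 879, 872 and 717 to 605, 548 and 489 CPM (−0.59, SE 0.179, adjusted p = 0.0227). In each of the 5 genes the groups were separate. Total-count scaling, which moves the median of all genes by −0.301 in this comparison, gave 2 higher and 3 lower, and the Pdia6 call was lost (adjusted p = 0.0803). Without WT_M0 library 2 the count was 2, with Creld2 (0.0519), Herpud1 (0.0603) and Hsp90b1 (0.0679) no longer called, and Creld2 was also lost without WT_M0 library 3 (0.0771) and Hsp90b1 without WT_M0 library 1 (0.0701) or WT_M1 library 2 (0.0647) or 3 (0.101). Of the other 28 ER genes 7 were higher and 1 lower, with the isomerase P4hb at 0.82. Among libraries with AP-3-84, 5 of 10 genes were higher in WT_M1 than in WT_M0, beside 12.5% of all genes, and 2 lower, beside 10.6%. The higher ones were Hyou1 (0.86), Creld2 (1.01), Pdia6 (0.72), Calr (0.66) and Sdf2l1 (0.76), and the lower ones Herpud1 (−0.82) and Hsp90b1 (−0.63). Of these 7 calls, 4 were left without WT_M0 AP-3-84 library 1 or WT_M1 AP-3-84 library 3, and Herpud1 was lost without any 1 of the 6 libraries. Sdf2l1 was lost without any 1 of them but WT_M0 AP-3-84 library 3, Hsp90b1 without WT_M0 or WT_M1 AP-3-84 library 3 (0.0526 and 0.0612) and Creld2 without WT_M0 AP-3-84 library 1 (0.0706).

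Set directly against each other, WT_M1 exceeded WT_M2 for Hyou1 (0.83, SE 0.16, adjusted p = 0.000162), 1 of 10 genes beside 11.9% of all genes. It was lower for Pdia4 (−1.94, SE 0.374, adjusted p = 0.000262), Hspa5 (−0.39, adjusted p = 0.0173) and Herpud1 (−0.79, adjusted p = 0.0497), 3 of 10 beside 13.6%. Without WT_M2 library 3 the count of 4 became 2, since Hspa5 (0.0652) and Herpud1 (0.142) were lost, and Herpud1 was also lost without WT_M2 library 2 (0.173) or any 1 of the WT_M1 libraries (0.132, 0.114 and 0.0704). Treated WT_M1 libraries were higher than treated WT_M2 libraries for Hyou1 (0.50, adjusted p = 0.021), 1 of 10 beside 11.7%, and lower for Hspa5 (−0.45, adjusted p = 0.00732) and Herpud1 (−1.0, adjusted p = 0.0143), 2 of 10 beside 10.8%. The Hyou1 call was lost when scaled by total counts (0.154) and without WT_M1 AP-3-84 library 1 (0.132) or 3 (0.0541) or WT_M2 AP-3-84 library 2 (0.0512) or 3 (0.0933), and Herpud1 was lost without WT_M1 AP-3-84 library 1 (0.0754) or WT_M2 AP-3-84 library 3 (0.0648). In KO cells M1 was lower than M2 for 6 of 10 genes, beside 13% of all genes, and higher for 0. These were Hspa5 (−0.73, adjusted p = 3.1e-05), Hsp90b1 (−1.01, adjusted p = 6.26e-05), Pdia4 (−1.78, adjusted p = 0.000646), Pdia6 (−0.70), Sdf2l1 (−1.06) and Herpud1 (−0.95), the last of which was lost without KO_M1 library 1 (0.118) or 3 (0.0503) or KO_M2 library 1 (0.232). In the AP-3-84 libraries of the same populations 9 of 10 were lower, beside 16.7% of all genes. Against KO_M0 vehicle libraries, KO_M1 was higher for Hyou1 (0.55, SE 0.162, adjusted p = 0.00659) and Pdia6 (0.43, adjusted p = 0.0416), 2 of 10 beside 22.8%, and lower for Hspa5 (−0.36, SE 0.123, adjusted p = 0.0165), 1 of 10 beside 21.8%. Without KO_M1 library 2, which was the highest of its group for Hyou1 (105 CPM) and Pdia6 (334 CPM), 1 gene was called. Pdia6 was also lost without KO_M0 library 2 (0.173) or 3 (0.0941), and Hspa5 without KO_M0 library 3 (0.112) or KO_M1 library 1 (0.0589). In that comparison 11 of the 12 integrated stress genes were higher. Treated KO_M1 libraries were lower than treated KO_M0 libraries for Herpud1 (−1.52, SE 0.296, adjusted p = 0.000495) and Hspa5 (−0.78, SE 0.124, adjusted p = 3.87e-05), 2 of 10 beside 12.2%, and higher for 0. Hyou1 (−0.09) and Pdia6 (−0.02) did not pass there. Without both KO_M0 AP-3-84 libraries high in M1 markers Herpud1 no longer passed (adjusted p = 0.254).

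Genotype was compared next, first in the vehicle libraries. In M0, 6 of 10 genes were lower in KO than in WT cells, beside 16.8% of all genes, and 0 were higher. Hsp90b1, at 879, 872 and 717 CPM in WT and 505, 385 and 404 CPM in KO, had a log2 fold change of −0.93 (SE 0.18, adjusted p = 0.00021). Hyou1 (−0.54, SE 0.162, adjusted p = 0.0106), Pdia6 (−0.57, SE 0.171, adjusted p = 0.0101) and Sdf2l1 (−0.79, SE 0.267, adjusted p = 0.0229) followed, with Herpud1 (−0.81, adjusted p = 0.0337) and Calr (−0.37, adjusted p = 0.0242). The genotypes were separate for all of these but Sdf2l1. Hsp90b1 passed in every alternative. Leaving out WT_M0 library 1 or KO_M0 library 2 left 2 calls, and leaving out KO_M0 library 1 left 3. Hyou1 was lost without WT_M0 library 1 (adjusted p = 0.118), and Pdia6 without that library (0.0554) or KO_M0 library 2 (0.0663). Calr was lost without WT_M0 library 1 (0.209) or KO_M0 library 1 (0.0668) or 2 (0.0748). Sdf2l1 was lost without WT_M0 library 1 (0.115) or 2 (0.0754) or KO_M0 library 1 (0.0509) or 2 (0.0997), and Herpud1 without WT_M0 library 2 (0.155) or 3 (0.0752) or any 1 of the KO_M0 libraries (0.0671, 0.0929 and 0.0676). M1 markers summed to 2122 to 3553 CPM in the WT_M0 and 68.2 to 163 CPM in the KO_M0 vehicle libraries, and their part in the result was not tested. In the AP-3-84 libraries of M0, 2 of 10 genes were higher in KO_M0, beside 6.97% of all genes, and 0 lower. Of the 6 genes lower in KO_M0 vehicle libraries, only Herpud1 was among these 2. Hsp90b1 was still lower on average in KO, at 505 CPM against 627 CPM in WT, and did not pass. Calr had means of 1027 CPM in KO and 1025 CPM in WT. Hspa5 stood at 1293, 1291 and 1449 CPM in WT and 2079, 1859.7 and 1459 CPM in KO (0.42, SE 0.123, adjusted p = 0.0218), without overlap. Herpud1 stood at 72.0, 75.8 and 68.7 CPM and 164, 161 and 71.7 CPM (0.87, SE 0.29, adjusted p = 0.0465), with overlap. Neither passed without WT_M0 AP-3-84 library 1 or 2, KO_M0 AP-3-84 library 1 or 2, or both KO_M0 libraries high in M1 markers, and Herpud1 was also lost without WT_M0 AP-3-84 library 3 (0.13) and when scaled by total counts (0.062).

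In M1, 4 of 10 genes were lower in KO, beside 5.71% of all genes, and 0 higher. Hyou1 stood at 170.5, 173 and 151 CPM in WT and 67.3, 105 and 85.3 CPM in KO (−0.94, SE 0.16, adjusted p = 0.000233), and Pdia6 at 478, 481 and 405 CPM and 191, 334 and 232 CPM (−0.85, SE 0.171, adjusted p = 0.00157). Both were separate between the genotypes. Sdf2l1 (−0.82, adjusted p = 0.0399) and Calr (−0.41, adjusted p = 0.0315) also passed, each with separate libraries, and were lost in the fits that follow. The count was 2 when scaled by total counts and without WT_M1 library 1, 2 or 3, KO_M1 library 1 or 3, or the 4 libraries high in neutrophil markers. In the AP-3-84 libraries 6 of 10 were lower in KO_M1, beside 6.78%, which became 1 higher and 2 lower when scaled by total counts. Leaving out WT_M1 AP-3-84 library 1 or KO_M1 AP-3-84 library 3 left 2 of these calls, and leaving out WT_M1 AP-3-84 library 3 or KO_M1 AP-3-84 library 1 left 3. At the same time 8 of the 12 integrated stress genes were higher in KO_M1 vehicle libraries, with Trib3 at 4.16, Ddit3 at 2.99 and Atf4 at 1.69. The share of all genes called higher in that comparison is not given here, so the count cannot be set against it.

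Hsp90b1 was lower in KO than in WT cells in M0 and higher in M2, both by the test. In M2 it was the only gene called, 1 of 10 higher in KO beside 1.21% of all genes, at 557, 623 and 399 CPM in WT and 897, 894 and 849.7 CPM in KO (0.74, SE 0.179, adjusted p = 0.0162). This call was lost without WT_M2 library 3 (adjusted p = 0.125) or KO_M2 library 2 (0.0603) or 3 (0.0582), and without the 4 libraries high in neutrophil markers (0.143). Pdia6, Herpud1 and Hyou1, which were lower in KO_M0, had values of 0.21, 0.29 and 0.25 in M2 that did not pass. The difference between the genotype effects in M2 and in M0, tested directly, was 1.67 on the log2 scale (SE 0.254, adjusted p = 1.77e-05) and was lost in 0 of 20 alternatives. In the AP-3-84 libraries Hsp90b1 stood at 602, 533 and 500.3 CPM in WT_M2 and 881, 1104 and 1154 CPM in KO_M2 (0.94, SE 0.18, adjusted p = 0.000585), 1 of 10 genes called higher beside 6.02%. There the difference between the genotype effects in M2 and M0 was 1.25 (SE 0.253, adjusted p = 0.00219), likewise lost in 0 of 20 alternatives. Hsp90b1 was called for this difference with 1 of 10 genes in the AP-3-84 libraries, beside 2.95% of all genes, and with 4 of 10 in the vehicle libraries, beside 13.9%. The other 3 were Pdia6 (0.79, SE 0.241, adjusted p = 0.0154), Herpud1 (1.10, SE 0.413, adjusted p = 0.0466) and Hyou1 (0.78, SE 0.227, adjusted p = 0.0109). The count of 4 fell to 2 without KO_M0 vehicle library 2, where Pdia6 (0.0533) and Herpud1 (0.0923) were lost. Hyou1 was lost without WT_M0 vehicle library 1 (0.0533), and Herpud1 in 10 of 20 alternatives, with an adjusted p of up to 0.188 without KO_M2 vehicle library 1.

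The genotype difference in M1 was also set against those in M2 and M0. In vehicle libraries it was lower in M1 than in M2 for 3 of 10 genes, Hyou1 (−1.19, SE 0.226), Hsp90b1 (−1.07, SE 0.253) and Pdia6 (−1.06, SE 0.24), beside 1.04% of all genes. The count was 1 without WT_M1 library 2, KO_M1 library 1 or 3, or the 4 libraries high in neutrophil markers, and 0 in a fit of only the groups compared. It was lower in M1 than in M2 for Hyou1 (−1.11) and Calr (−0.73) in the AP-3-84 libraries, 2 of 10 beside 1.38%. Against M0, 0 of 10 passed in the vehicle libraries in edgeR and in DESeq2, with 2 at an unadjusted p under 0.05, beside 20.7% of all genes, and total-count scaling gave 2 higher. With the compound, 5 of 10 were lower in M1 than in M0, beside 6.18%, namely Sdf2l1 (−1.32), Hyou1 (−0.94), Hspa5 (−0.83), Calr (−0.76) and Pdia6 (−0.74). None of these 5 passed without both KO_M0 libraries high in M1 markers or when scaled by total counts.

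The peritoneal populations differed for 4 of 10 genes, all higher in ascites than in thio vehicle libraries, beside 20.3% of all genes called higher. Pdia4 stood at 124, 140.2 and 136 CPM in ascites and 69.1, 80.0 and 73.5 CPM in thio macrophages (0.85, SE 0.157, adjusted p = 0.0013), Pdia6 at 181, 180.0 and 164 CPM and 132, 145 and 144 CPM (0.32, SE 0.0689, adjusted p = 0.0014), and Hspa5 at 1164, 1090.3 and 1028 CPM and 865, 888 and 925 CPM (0.29, SE 0.0761, adjusted p = 0.00565). These 3 were separate between the groups, and so was Creld2, at 15.3, 13.0 and 15.1 CPM against 12.6, 10.3 and 9.93 CPM (0.40, SE 0.148, adjusted p = 0.0461). The Creld2 call was lost in 9 of 13 alternatives, among them leaving out ascites library 1 (adjusted p = 0.13) or 3 (0.127) or thio library 2 (0.137) or 3 (0.166). Epithelial or ID8 tumour markers summed to 185 to 219 CPM in ascites, 8 of 8 with counts, and to 2.98 to 4.66 CPM in thio vehicle libraries, 5 of 8 with counts and Epcam, Msln and Cldn3 at 0. Their part in the result was not tested. In the AP-3-84 libraries 2 of 10 genes were higher in ascites, beside 22.9% of all genes, Pdia4 (0.54, adjusted p = 0.0173, and 0.0523 without thio library 1) and Herpud1 (0.49, adjusted p = 0.00574).

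Over the 16 groups the 10 genes did not share an order. Among marrow-derived groups, a WT_M1 group had the highest mean for Pdia6, Hyou1, Calr and Creld2. A WT_M1 group also had the lowest mean for Hsp90b1, Pdia4 and Herpud1. With each gene's log2 CPM centred within its fit and standardised, the mean over the 10 genes was lowest in KO_M0 vehicle (−1.23), KO_M1 vehicle (−1.09) and KO_M1 AP-3-84 libraries (−1.0) and highest in KO_M2 AP-3-84 (1.36) and KO_M2 vehicle libraries (1.07). WT groups lay between, from −0.55 in WT_M0 AP-3-84 to 0.69 in WT_M2 AP-3-84 libraries. Within the marrow-derived groups the highest group mean was 4.30 times the lowest for Pdia4, 3.24 times for Herpud1, 2.81 times for Hyou1, 2.75 times for Sdf2l1 and 2.59 times for Hsp90b1, but only 1.96 times for Hspa5 and 1.83 times for Calr. In the peritoneal groups the ratio was 2.12 for Pdia4 and 1.09 for Hsp90b1. Most neighbours in these orders were not separate: of 11 neighbouring pairs of marrow-derived groups, the libraries did not overlap in 3 for Hyou1, 2 each for Hspa5 and Calr, 1 each for Hsp90b1, Pdia6, Herpud1 and Creld2, and 0 for Pdia4, Sdf2l1 and Xbp1.

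**Figure D4:**
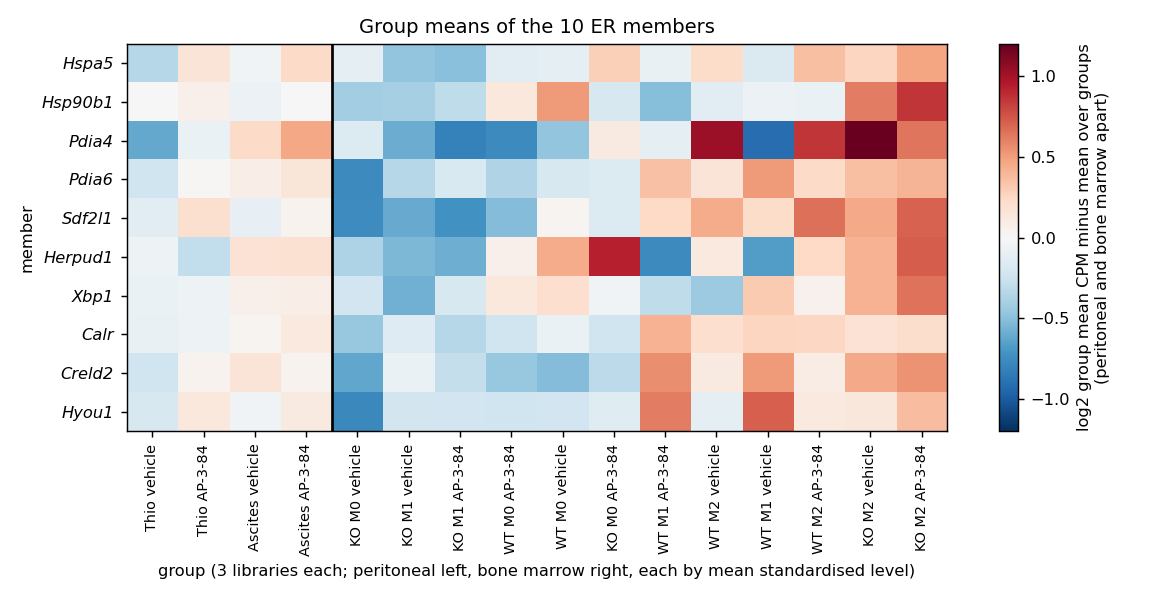
Heat map of log2 group mean CPM of the 10 genes in the 16 groups, each minus the mean of that gene over the groups of the same fit, with groups ordered by their mean standardised level within the peritoneal and the marrow-derived set. KO_M0 vehicle and the KO_M1 groups are at the low end and the KO_M2 groups at the high end.

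As a description over the 16 group means, which share libraries, depth and cell source and include treated and untreated libraries of the same populations, 43 of 45 pairs of the 10 genes had a positive Pearson correlation, with a median of 0.47 and a range from −0.13 to 0.92. The closest pairs were Pdia6 with Hyou1 (0.92), with Creld2 (0.91) and with Calr (0.91). Among 11441 other genes tested in both fits, those most like the mean of the 10 were Rpl36al (0.92), Atp5g3 (0.90), Atp5a1 (0.89), Sec61b (0.88) and Gid8 (0.88), of which Sec61b, a subunit of the ER translocation channel, is in the list of other ER genes. The median correlation was 0.55 for the 28 other ER genes, 0.32 for the heat shock genes, 0.03 for the integrated stress genes, −0.06 for the sensors and 0.0017 for all genes, whose 95th percentile was 0.638.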

How the data were processed

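RNA of 48 mouse macrophage libraries in 16 groups of 3 was measured by QuantSeq FWD 3′ sequencing, in single reads of 75 bases from 100 ng of DNase-treated RNA, per the labels' protocols. The authors deposited whole-number counts per gene and library. RSEM, Bowtie2 and DESeq2 are named in the submitters' processing notes without role or version, so the counts may be rounded estimates, while build and annotation were not given in the sources used here. Groups follow titles and descriptions.

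Counts were tested with edgeR 4.0.16 (R 4.3.3) by the quasi-likelihood test with robust dispersion, TMM scaling and the default filter by group, 1 mean per group and no block, in a fit of 12 peritoneal libraries (16955 genes, biological coefficient of variation 0.168) and a fit of 36 marrow-derived libraries (11779 genes, 0.225). Scripts were tested on simulated counts. Of 42 comparisons, 26 were planned and 16 were added after seeing the data. SE is the log2 fold change divided by the square root of F. Intervals are 95% confidence intervals. Replicate libraries differed by more than counting noise. Symbols were matched for 51596 of 51789 gene IDs. Named are all 10 genes, preset genes of each comparison list, the up to 3 called genes of a list with the lowest p, and label checks. Other genes of the lists, where given, were chosen after their values were seen. The members and lists were chosen with earlier results of these data known. Alternatives were median-ratio factors, total-count scaling, no low-count filter, DESeq2 1.42.0, a joint fit of all 48 libraries, fits of only the groups compared, a replicate block, leaving out single libraries and, added after seeing the data, leaving out libraries high in neutrophil or M1 markers.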

Additional observations from a re-analysis of the deposited data

Results flagged for a closer look

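These values stand out because the same contrast gave different results in different populations, by a test of the difference itself (edgeR interaction terms, log2 scale). The response to AP-3-84 was larger in KO_M0 than in WT_M0 for Herpud1 (1.68), Sdf2l1 (1.14) and Pdia6 (0.77), and that of Herpud1 was smaller in KO_M1 than in KO_M0 (−1.35). The 2 KO_M0 libraries with AP-3-84 that were high in M1 markers stood highest for Herpud1, and without both of them 0 of the 4 passed.

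The difference between KO and WT vehicle libraries was higher in M2 than in M0 for Hsp90b1 (1.67), Herpud1 (1.10), Pdia6 (0.79) and Hyou1 (0.78). It was lower in M1 than in M2 for Hyou1 (−1.19, adjusted p = 0.00336), Hsp90b1 (−1.07, adjusted p = 0.0195) and Pdia6 (−1.06, adjusted p = 0.0151), beside 1.04% of all genes. The last count of 3 fell to 1 without WT_M1 library 2 or KO_M1 library 1 or 3 and to 0 in a fit of only the groups compared.

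In the AP-3-84 libraries the KO minus WT difference was lower in M1 than in M0 for Sdf2l1 (−1.32), Hyou1 (−0.94), Hspa5 (−0.83), Calr (−0.76) and Pdia6 (−0.74), beside 6.18% of all genes. This count of 5 was 0 without both KO_M0 libraries high in M1 markers and 1, on the higher side, when scaled by total counts. It was 3 without WT_M0 library 1, WT_M1 library 1 or 2, KO_M0 library 1 or KO_M1 library 1. In the same libraries the difference was higher in M2 than in M0 for Hsp90b1 (1.25), and lower in M1 than in M2 for Hyou1 (−1.11, adjusted p = 0.00911) and Calr (−0.73, adjusted p = 0.027), beside 1.38% of all genes. Of the last pair, 1 remained called in 9 of 12 fits that left out a library.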

How the results depend on the processing

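Of 405 alternative values of the 26 planned counts, 331 stayed within 1.5 times the main count and 74 did not, and the cause was not tested. Without both KO_M0 AP-3-84 libraries high in M1 markers the KO_M0 response gave 0 genes, the KO_M0 minus WT_M0 response 0 and the KO_M1 minus KO_M0 response 0, and Herpud1 between the AP-3-84 libraries of KO_M0 and WT_M0 changed sign, from 0.87 to −0.0115. Without the 4 libraries high in neutrophil markers the KO_M1 minus KO_M0 response gave 0, and in vehicle libraries KO_M1 minus WT_M1 gave 2, KO_M2 minus WT_M2 0 and WT_M2 minus WT_M0 1. Median-ratio factors gave 1 in thio macrophages and 0 for the KO_M1 minus KO_M0 response. Total-count scaling gave 0 for that response and 2 for KO_M1 minus WT_M1 vehicle. Its shift of the median of all genes was 0.272 there, 0.190 for KO_M2 minus WT_M2, −0.198 for WT_M2 minus WT_M0 and 0.143 for ascites minus thio. Without the low-count filter the response count was 1 in ascites, 1 in WT_M1, 1 for KO_M1 minus WT_M1, 1 for WT_M1 minus WT_M0 and 2 for KO_M2 minus KO_M0, and the vehicle count 2 for KO_M2 minus WT_M2 and 1 for KO_M1 minus KO_M0. With all 48 libraries in one fit, thio macrophages gave 1, the KO_M0 minus WT_M0 response 6, KO_M1 minus KO_M0 2 and KO_M2 minus KO_M0 2, and vehicle ascites minus thio 0 and KO_M1 minus KO_M0 5. With only the groups compared, thio gave 4, KO_M0 1, the KO_M1 minus KO_M0 response 0 and vehicle KO_M2 minus WT_M2 0.

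Leaving out 1 library at a time gave 1 to 3 genes in thio macrophages, 1 to 5 in KO_M0, 1 to 5 for the KO_M0 minus WT_M0 response, 0 to 3 for KO_M1 minus KO_M0 and 0 to 2 for KO_M2 minus KO_M0. In vehicle libraries it gave 3 to 4 for ascites minus thio, 2 to 5 for KO_M0 minus WT_M0, 2 to 5 for KO_M1 minus WT_M1, 0 to 1 for KO_M2 minus WT_M2, 2 to 5 for WT_M1 minus WT_M0, 1 to 5 for WT_M2 minus WT_M0, 1 to 3 for KO_M1 minus KO_M0, 7 to 9 for KO_M2 minus KO_M0, 2 to 4 for WT_M1 minus WT_M2 and 5 to 8 for KO_M1 minus KO_M2. The other 11 response counts stayed at 0.

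Replicate numbers did not pair the libraries: of 24 pairs with the same number 4 had a correlation of deviations over 0.1 (range −0.53 to 0.52), and 5 correlated best with their own number. The replicate block took the KO_M1 minus KO_M0 response from 1 to 0 and moved no other planned count by over 1.5 times. Depth limits Creld2, Xbp1, Sdf2l1 and Herpud1 most, which had the lowest counts. Whether depth or the spread between libraries kept responses in the marrow-derived libraries from passing was not tested.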
